A study of Mus musculus with 14 samples.

Results

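The genes described here are those by which the liver senses body iron and sets hepcidin, the peptide hormone that closes the exit of iron into the blood. The set names 10 genes, and 9 of them were measured by a probe set with exactly 1 gene symbol: Hamp, Tfr2, Tfrc, Hfe, Bmp6, Id1, Smad7, Slc40a1 and Hpx, of 22180 genes in all. Trf, which encodes the iron carrier transferrin, is not analysed here. Each gene had 1 probe set. The genes were picked by name for their role, with earlier results of these arrays known.

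Affymetrix whole-transcript arrays were hybridised with RNA of 14 livers of male mice of the inbred C57BL/6J strain. By title, mice 1, 2, 3, 5, 6, 10 and 13 had been deprived of sleep and mice 4, 7, 8, 9, 11, 12 and 14 served as controls, which makes 7 per group. The question of the study was what 6 h without sleep, given a single time, do to glucose tolerance and to fat in the liver. No transgene or mutation is named for either group, and age, feeding, time of day and the way in which sleep was disturbed before these arrays are not given by the labels. The labels number the livers without naming separate animals. Each number is treated as 1 mouse, so p-values measure the spread between these samples, which may be technical.

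Hepcidin, the product of Hamp, is made by hepatocytes and released into the blood, where it binds ferroportin, the only known cellular iron exporter, and causes its removal from the cell surface. Endothelial cells of the liver sinusoids secrete BMP6 when iron is plentiful. BMP6 acts through receptors and SMAD proteins of the hepatocyte to switch on Hamp together with Id1 and Smad7, while HFE and transferrin receptor 2 report the iron load of plasma transferrin, and interleukin-6 acts on Hamp through STAT3.

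The mouse carries a pair of hepcidin genes. The 250 bases before their start sites are shown because they differ in the motif by which BMP-SMAD signalling is known to act on Hamp. They come from RefSeq on GRCm38.p6, run 5′ to 3′ on the minus strand, and cover chr7:30944030-30944279 for Hamp and chr7:30924182-30924431 for Hamp2. Capitals mark the BMP response element core GGCGCC and the STAT motif TTCNNNGAA.
Hamp: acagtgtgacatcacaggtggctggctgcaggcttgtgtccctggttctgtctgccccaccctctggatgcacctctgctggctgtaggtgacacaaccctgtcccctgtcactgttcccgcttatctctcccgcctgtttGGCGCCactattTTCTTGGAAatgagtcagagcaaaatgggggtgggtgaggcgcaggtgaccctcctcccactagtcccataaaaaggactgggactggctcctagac
Hamp2: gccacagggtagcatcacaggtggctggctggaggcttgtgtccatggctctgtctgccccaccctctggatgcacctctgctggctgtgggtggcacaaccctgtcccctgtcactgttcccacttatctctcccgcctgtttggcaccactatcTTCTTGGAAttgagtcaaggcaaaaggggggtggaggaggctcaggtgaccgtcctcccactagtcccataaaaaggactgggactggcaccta
The windows were identical at 227 of 253 aligned positions (89.7%). The Hamp window held GGCGCC at -109 to -104 and the STAT motif, as TTCTTGGAA, at -97 to -89, counted from the start site with -1 as the base before it. In the Hamp2 window the STAT motif lay at -94 to -86 and no GGCGCC was found. Both strands were searched, also for the E-box CACGTG, which neither window held. Over 250 bases, 9.59% of 32851 promoters held GGCGCC, 7.02% held TTCNNNGAA and 6.02% held CACGTG. Among the other members, windows were read for Tfr2, Tfrc, Hfe, Bmp6 and Hpx, and not for Id1, Smad7 and Slc40a1. A GGCGCC lay in a Tfrc window at -89 to -84 and a CACGTG in that of Bmp6 at -127 to -122. Outside the members, the window of Id2 held a GGCGCC at -231 to -226, and that of Id3 held none of these motifs. Each of the 2 windows of Alad held a CACGTG, at -105 to -100 and at -28 to -23. The windows of Steap3, Ncoa4, Ppox and Abcb6 held none of the motifs. A match in letters is a description and shows no binding.

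Hepcidin mRNA did not differ detectably between sleep-deprived and control livers. The log2 level of Hamp (probe set 17489363) was 12.98, 13.03, 12.77, 13.00, 12.79, 12.83 and 12.78 in control mice 4, 7, 8, 9, 11, 12 and 14. It was 12.96, 12.86, 12.90, 12.96, 12.74, 12.92 and 12.80 in sleep-deprived mice 1, 2, 3, 5, 6, 10 and 13. The groups overlapped almost entirely, with 6 of 7 sleep-deprived mice inside the range of the controls. The means were 12.88 ± 0.12 and 12.88 ± 0.08 (SD, n = 7 each), and the log2 difference, sleep-deprived minus control, was -0.0072 ± 0.048 (limma's moderated SE; adjusted p = 0.965, Benjamini-Hochberg over all genes). Its 95% interval ran from 0.928 to 1.07 on the fold scale. The signal of Hamp was close to the top of the scale of these arrays, whose highest gene lay between 13.26 and 13.37, and the compression of bright signals was not tested.

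Hamp2, the second hepcidin gene, whose peptide is not known to act on iron, lay between 8.35 and 8.98 in controls and between 8.21 and 8.81 after sleep deprivation. Its log2 difference was -0.058 ± 0.10 (limma, adjusted p = 0.84). As Hamp and Hamp2 are related genes, their probe sets may share signal. Their transcripts and probes were not compared.

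Tfr2, the transferrin receptor by which hepatocytes sense iron-loaded transferrin, was the 1 of the 9 genes that changed. Its log2 level (probe set 17443613) was 10.12, 10.10, 10.14, 10.06, 10.17, 10.19 and 10.25 in control mice 4, 7, 8, 9, 11, 12 and 14. In sleep-deprived mice 1, 2, 3, 5, 6, 10 and 13 it was 9.96, 10.02, 9.93, 9.97, 10.02, 9.97 and 10.03. All 7 sleep-deprived mice lay below the lowest control. The log2 difference was -0.16 ± 0.037 (limma, adjusted p = 0.00843), or 1.12-fold lower, with a 95% interval from 0.847 to 0.944 on the fold scale. The fall was small and held in each of the 14 fits that left out 1 mouse (adjusted p from 0.00697 to 0.0222). It missed the threshold when the spread was estimated without an intensity trend (limma, adjusted p = 0.0514). Of the 22180 genes tested 8.50% passed the threshold, made up of 4.62% lower and 3.88% higher. Tested alone, the genes brighter than the median gene (mean log2 level above 3.99) gave 2259 calls, a larger share. No rate for genes of like brightness is given, so 8.50% is a low yardstick for lists of bright genes below. At 3.13% of all genes every value of a group lay beyond every value of the other. Against these rates, 1 called gene of 9 is near the background.

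**Figure D1:**
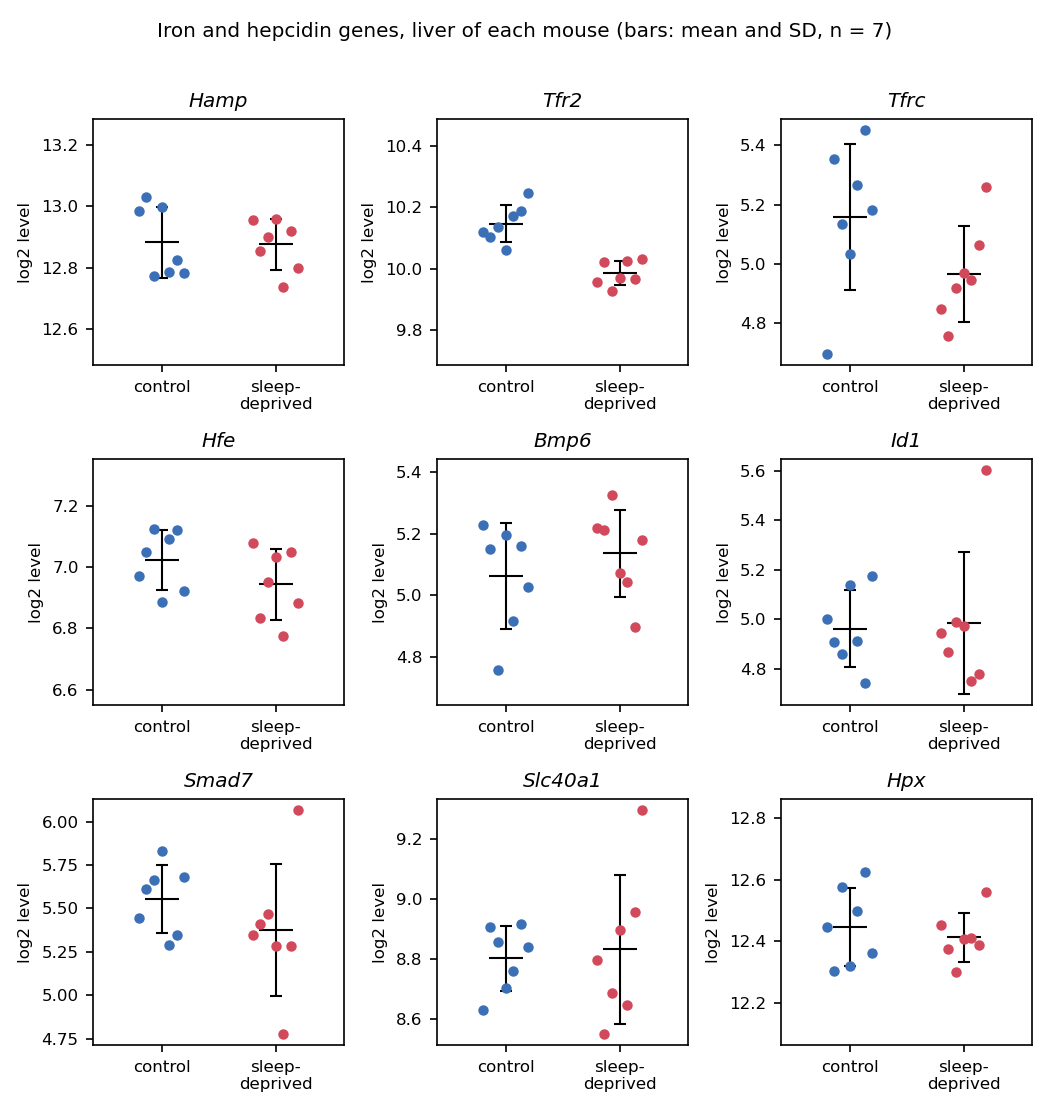
Log2 level (y axis, own range for each gene) of the 9 iron and hepcidin genes in each mouse, with control mice in blue and sleep-deprived mice in red; bars give the mean and SD of 7 mice. The groups separate in Tfr2, where every sleep-deprived mouse is at or below 10.03 and every control at or above 10.06, and overlap in the other 8 genes.

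The partners of Tfr2 at the cell surface did not pass. Tfrc encodes transferrin receptor 1, which imports iron-loaded transferrin and whose mRNA is known to be stabilised when cells lack iron. Its log2 level (probe set 17324835) was 4.70, 5.35, 5.14, 5.04, 5.27, 5.45 and 5.18 in control mice 4, 7, 8, 9, 11, 12 and 14, against 4.85, 4.76, 4.92, 4.97, 4.95, 5.06 and 5.26 in sleep-deprived mice 1, 2, 3, 5, 6, 10 and 13. Control mouse 4 was the lowest of all 14, and all sleep-deprived mice lay inside the range of the controls. The log2 difference was -0.19 ± 0.10 (limma, adjusted p = 0.322), and in fits without 1 mouse it ran from -0.27 without control mouse 4 (adjusted p = 0.0646) to -0.14 without control mouse 12 (adjusted p = 0.513). With the sample number as a covariate it was -0.053 (adjusted p = 0.823). Sleep-deprived mice hold most of the low sample numbers, so here and below this covariate overlaps in part with the group. The shares of group and number in a difference cannot be fully told apart. Hfe, the MHC-like protein that binds both transferrin receptors and is mutated in hereditary hemochromatosis, lay between 6.88 and 7.13 in controls and between 6.78 and 7.08 after sleep deprivation (probe set 17291211). Its log2 difference was -0.079 ± 0.062 (limma, adjusted p = 0.563).

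Bmp6, the ligand that carries the iron signal, had log2 levels from 4.76 to 5.23 (median 5.15) in controls and from 4.90 to 5.33 (median 5.18) after sleep deprivation (probe set 17286682). The difference of 0.073 ± 0.084 did not pass (limma, adjusted p = 0.729). Of 11 markers of the sinusoidal endothelial cells that make BMP6, 4 rose and 0 fell in the same livers (36.4% called against 8.50% of all genes), with a median log2 difference of 0.17 against -0.0048 over all genes. Lyve1, a hyaluronan receptor of these cells, rose by 1.13 ± 0.18 (limma, adjusted p = 0.000422). The others that rose were Oit3, Pecam1 and, close to the threshold, Ehd3 (limma, adjusted p = 0.0497). Kdr, a receptor of vascular endothelial growth factor, pointed the other way at -0.18 ± 0.067 (adjusted p = 0.114), with all 7 sleep-deprived mice below the control mean. The summed linear level of the 11 markers ran from 1956 to 2670 in controls and from 2260 to 2989 in sleep-deprived mice, and their part in the value of Bmp6 was not tested. In whole liver, a change in the number of a kind of cell and a change of RNA per cell cannot be told apart.

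Id1 and Smad7, which BMP-SMAD signalling switches on beside Hamp, did not pass. Id1, an inhibitor of DNA binding by helix-loop-helix factors (probe set 17377778), had log2 levels of 5.00, 4.91, 4.86, 5.14, 4.91, 4.74 and 5.17 in control mice 4, 7, 8, 9, 11, 12 and 14. In sleep-deprived mice 1, 2, 3, 5, 6, 10 and 13 the levels were 4.94, 4.87, 4.99, 4.97, 4.75, 4.78 and 5.60. Mouse 13 alone exceeded the controls, and the other 6 lay inside their range. The log2 difference was 0.023 ± 0.11 (limma, adjusted p = 0.949), and -0.080 ± 0.080 without mouse 13 (adjusted p = 0.702). Smad7, the inhibitory SMAD that feeds back on BMP and TGF-beta receptors (probe set 17351862), was 5.44, 5.61, 5.67, 5.83, 5.29, 5.35 and 5.68 in the controls. After sleep deprivation it was 5.35, 5.41, 5.47, 5.28, 4.78, 5.29 and 6.07, in the same order of mice. Its difference of -0.18 ± 0.14 (limma, adjusted p = 0.558) became -0.29 ± 0.11 without mouse 13 (adjusted p = 0.134) and -0.077 ± 0.12 without mouse 6, the lowest (adjusted p = 0.818). With the sample number as a covariate it was -0.097 (adjusted p = 0.806).

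The sister genes Id2 and Id3, also inhibitors of helix-loop-helix factors and known to respond to BMPs, fell. Id3 was at 6.21 ± 0.14 in controls and 5.84 ± 0.22 after sleep deprivation, a log2 difference of -0.37 ± 0.089 (limma, adjusted p = 0.0107). Id2 was at 9.45 ± 0.09 and 9.08 ± 0.33, a difference of -0.37 ± 0.11 (adjusted p = 0.0348). In both genes 6 of 7 sleep-deprived mice were below the lowest control, and mouse 13 was the exception, at 9.72 for Id2, above the highest control, and at 6.23 for Id3, inside the range of the controls. Without mouse 13 the difference of Id2 was -0.48 ± 0.070 (limma, adjusted p = 0.000202) and that of Id3 -0.44 ± 0.078 (adjusted p = 0.00135). Id2 lost its call in 10 leave-one-out fits, those without control mice 7, 8, 9, 11 or 12 or sleep-deprived mice 2, 3, 5, 6 or 10, with adjusted p up to 0.0796. It also lost it without the intensity trend (0.0567), with robust estimation (0.0602) and with the sample number as a covariate (0.129). Mouse 13 was the highest of the sleep-deprived mice in Id1, Id2, Id3, Smad6, Smad7 and Bambi, and not in Id4, Atoh8, Tmprss6 or Hamp. In Smad6 it was level with the next mouse (5.05725 against 5.05696) and inside the range of the controls. Among the members it was also the highest in Tfr2, Tfrc, Slc40a1 and Hpx, and not in Hfe or Bmp6. The same held in Cd163, Ncoa4, Nedd4l, Il6ra and Creb3l3, though not in most other named genes. This place of mouse 13 was thus not particular to BMP-SMAD targets. Over all genes mouse 13 was the highest of the 7 at 15.8% of genes, against 11.0% to 17.4% for the other 6 mice. These genes were looked at together after their values were seen.

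**Figure D2:**
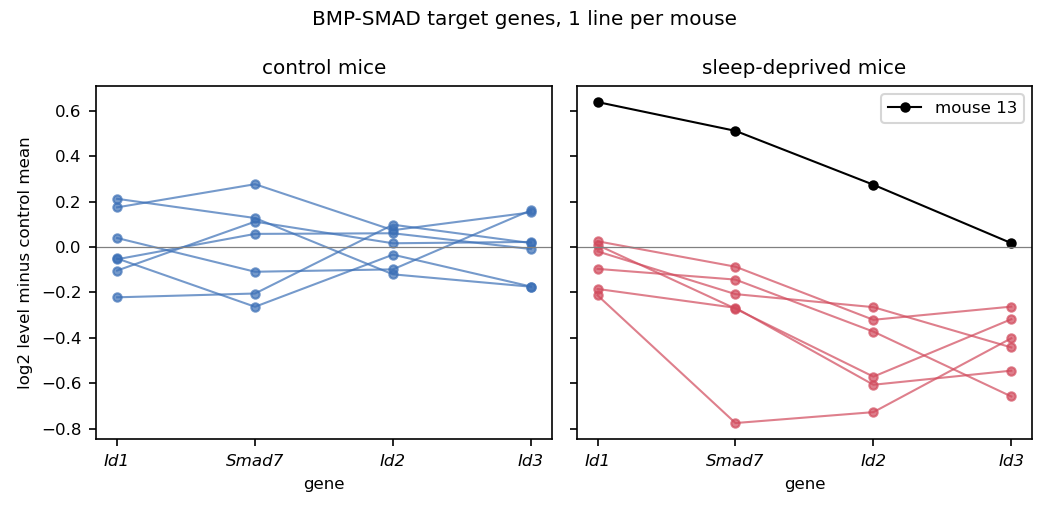
Log2 level minus the control mean (y axis) of 4 genes known to respond to BMP-SMAD signalling (x axis), with 1 line per mouse, control mice on the left and sleep-deprived mice on the right, and mouse 13 in black. In Id2 and Id3 the 6 sleep-deprived mice other than mouse 13 lie below the lowest control, while mouse 13 is the highest sleep-deprived mouse in all 4 genes.

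In the wider list of genes that control hepcidin through BMP and SMAD proteins, 0 of 32 measured were higher and 2 lower (6.25% against 8.50% of all genes), which were Id2 and Id3, with a median log2 difference of 0.0085. Hjv, the BMP co-receptor hemojuvelin, was at -0.013 ± 0.050 (limma, adjusted p = 0.934). Tmprss6, the protease that cleaves hemojuvelin and holds hepcidin down, was at -0.052 ± 0.039 (adjusted p = 0.539). Eng, a co-receptor found on endothelial cells, was at 0.26 ± 0.089 (adjusted p = 0.0756), and Atoh8, a transcription factor induced by iron, at 0.35 ± 0.15 (adjusted p = 0.18).

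The exporter that hepcidin acts on showed no detectable change. Slc40a1, which encodes ferroportin (probe set 17222777), had log2 levels of 8.63, 8.91, 8.86, 8.70, 8.76, 8.92 and 8.84 in control mice 4, 7, 8, 9, 11, 12 and 14. The sleep-deprived mice 1, 2, 3, 5, 6, 10 and 13 were at 8.80, 8.55, 8.69, 8.90, 8.65, 8.96 and 9.29. The sleep-deprived mice spread more widely than the controls, with mice 10 and 13 above and mouse 2 below all controls. The log2 difference was 0.031 ± 0.088 (limma, adjusted p = 0.912) and turned to -0.046 ± 0.068 without mouse 13 (adjusted p = 0.814). Ferroportin in liver is known to be strongest in Kupffer cells, whose 12 markers had 0 genes called (limma; 0 at an unadjusted p under 0.05). Hpx encodes hemopexin, the plasma protein that binds free heme and brings it to the liver. It lay between 12.30 and 12.62 in controls and between 12.30 and 12.56 after sleep deprivation (probe set 17494528), with a log2 difference of -0.033 ± 0.051 (limma, adjusted p = 0.814).

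**Figure D3:**
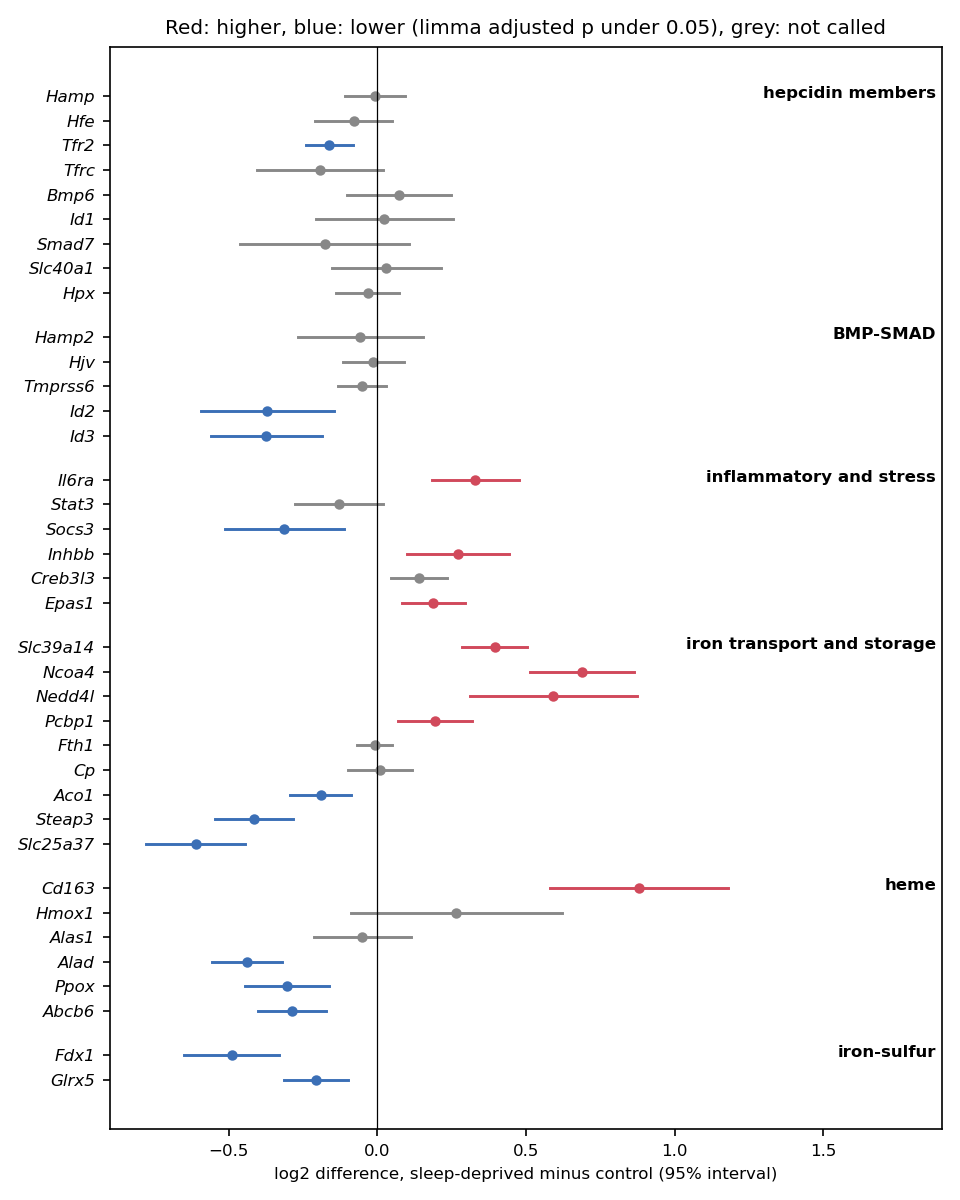
Log2 difference, sleep-deprived minus control (x axis), with its 95% interval from limma for the 9 members and for genes of the wider iron pathway named in the text, grouped by role; red points were called higher, blue points lower and grey points did not pass an adjusted p of 0.05. Among the members Tfr2 alone is called, at -0.16. In the iron transport and heme groups the differences range from -0.61 for Slc25a37 to 0.88 for Cd163.

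Genes by which cells take up, store and move iron changed in both directions. Of 27 measured, 4 rose and 3 fell (25.9% called against 8.50% of all genes), with a median log2 difference of 0.0086. The share of all genes includes dim ones and was not matched for brightness, here or for the other lists. Ncoa4, the receptor that carries ferritin to autophagosomes so that its iron is released, had log2 levels from 5.47 to 6.07 (median 5.79) in controls and from 6.26 to 6.64 (median 6.55) after sleep deprivation. All 7 sleep-deprived mice were above the highest control, and the difference was 0.69 ± 0.084 or 1.61-fold (limma, adjusted p = 1.96e-05). Slc39a14, which encodes ZIP14, the importer of iron not bound to transferrin and of zinc, ran from 8.88 to 9.11 (median 8.97) in controls and from 9.23 to 9.52 (median 9.37) after sleep deprivation. It too did not overlap between groups, and rose by 0.39 ± 0.052 or 1.31-fold (adjusted p = 4.69e-05). Nedd4l, a ubiquitin ligase known to act on membrane transporters, rose by 0.59 ± 0.13 (adjusted p = 0.00716), with 5 of 7 sleep-deprived mice above all controls. Pcbp1, an RNA-binding protein that also delivers iron to ferritin, rose by 0.19 ± 0.059 (adjusted p = 0.0453), but kept its call in only 2 leave-one-out fits, those without control mouse 8 or sleep-deprived mouse 10 (adjusted p up to 0.0966 in the other 12), and lost it without the trend (0.0731) and with the sample number as a covariate (0.149).

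Slc25a37, which encodes mitoferrin 1, a carrier that brings iron into mitochondria, showed the largest fall of the iron transport list. Its log2 level ran from 7.42 to 8.00 (median 7.61) in controls and from 6.91 to 7.19 (median 7.07) after sleep deprivation. The groups did not overlap, and the difference was -0.61 ± 0.080, or 1.53-fold lower (limma, adjusted p = 4.20e-05). Steap3, the reductase that turns endosomal ferric iron into ferrous iron after transferrin uptake, ran from 5.58 to 5.79 in controls and from 5.10 to 5.43 after sleep deprivation, again without overlap. It fell by 0.41 on the log2 scale (-0.41 ± 0.063, adjusted p = 0.00019). Aco1, the cytosolic aconitase that acts as iron regulatory protein 1 when it lacks its iron-sulfur cluster, was at -0.19 ± 0.049 (adjusted p = 0.0168), a call lost without the intensity trend (0.0542) and with quantile normalization again (-0.15, adjusted p = 0.051). The ferritin heavy chain gene Fth1 was at -0.0086 ± 0.028 (adjusted p = 0.923) and the ferroxidase ceruloplasmin, Cp, at 0.0086 ± 0.052 (adjusted p = 0.961). Ftl1, the ferritin light chain, is not analysed here.

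Among heme genes, 3 of the synthesis and porphyrin transport steps fell. Of 21 measured, 1 rose and 3 fell (19.0% called against 8.50% of all genes), with a median log2 difference of -0.062. Alad, which joins aminolevulinate to porphobilinogen in the cytosol, ran from 8.67 to 8.86 (median 8.76) in controls and from 8.09 to 8.45 (median 8.34) after sleep deprivation, a log2 difference of -0.44 ± 0.056, or 1.35-fold lower (limma, adjusted p = 3.71e-05). Ppox, the mitochondrial oxidase before the insertion of iron, was at -0.30 ± 0.068 (adjusted p = 0.00626), and Abcb6, an ABC transporter linked to porphyrins, at -0.29 ± 0.054 (adjusted p = 0.0016). In each of these 3 genes (3 of 21, where 3.13% of all genes did not overlap) all 7 sleep-deprived mice were below the lowest control. Alas1, the rate-limiting enzyme of heme synthesis in liver, was at -0.051 ± 0.078 (adjusted p = 0.815), and Cpox, the step before Ppox, at 0.16 ± 0.052 (adjusted p = 0.0743). Hmox1, which opens the heme ring and frees its iron, varied widely in both groups, from 4.67 to 5.94 in controls and from 5.08 to 5.91 after sleep deprivation (0.27 ± 0.17, adjusted p = 0.45).

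The gene of the heme list that rose was Cd163, the macrophage receptor for hemoglobin bound to haptoglobin. Its log2 level ran from 5.48 to 6.14 in controls and from 6.07 to 7.32 after sleep deprivation, with 6 of 7 sleep-deprived mice above all controls. The difference was 0.88 ± 0.14, or 1.84-fold (limma, adjusted p = 0.000416). The 12 Kupffer cell and macrophage markers had a median log2 difference of 0.063 and a summed linear level of 806 to 1866 in controls and 882 to 1411 after sleep deprivation.

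In iron-sulfur cluster assembly 0 of 13 measured genes rose and 2 fell (15.4% called against 8.50% of all genes), with a median log2 difference of -0.036. Fdx1, a mitochondrial ferredoxin that donates electrons, ran from 7.96 to 8.41 in controls and from 7.39 to 7.87 after sleep deprivation (-0.49 ± 0.077, limma, adjusted p = 0.000275). Glrx5, which passes clusters on to acceptor proteins, was at -0.21 ± 0.051 (adjusted p = 0.0131), and at -0.13 with its 2 probe sets averaged, which ended the call (adjusted p = 0.203). Without sleep-deprived mouse 6, 4 genes of this list passed, 1 as higher and 3 as lower.

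**Figure D4:**
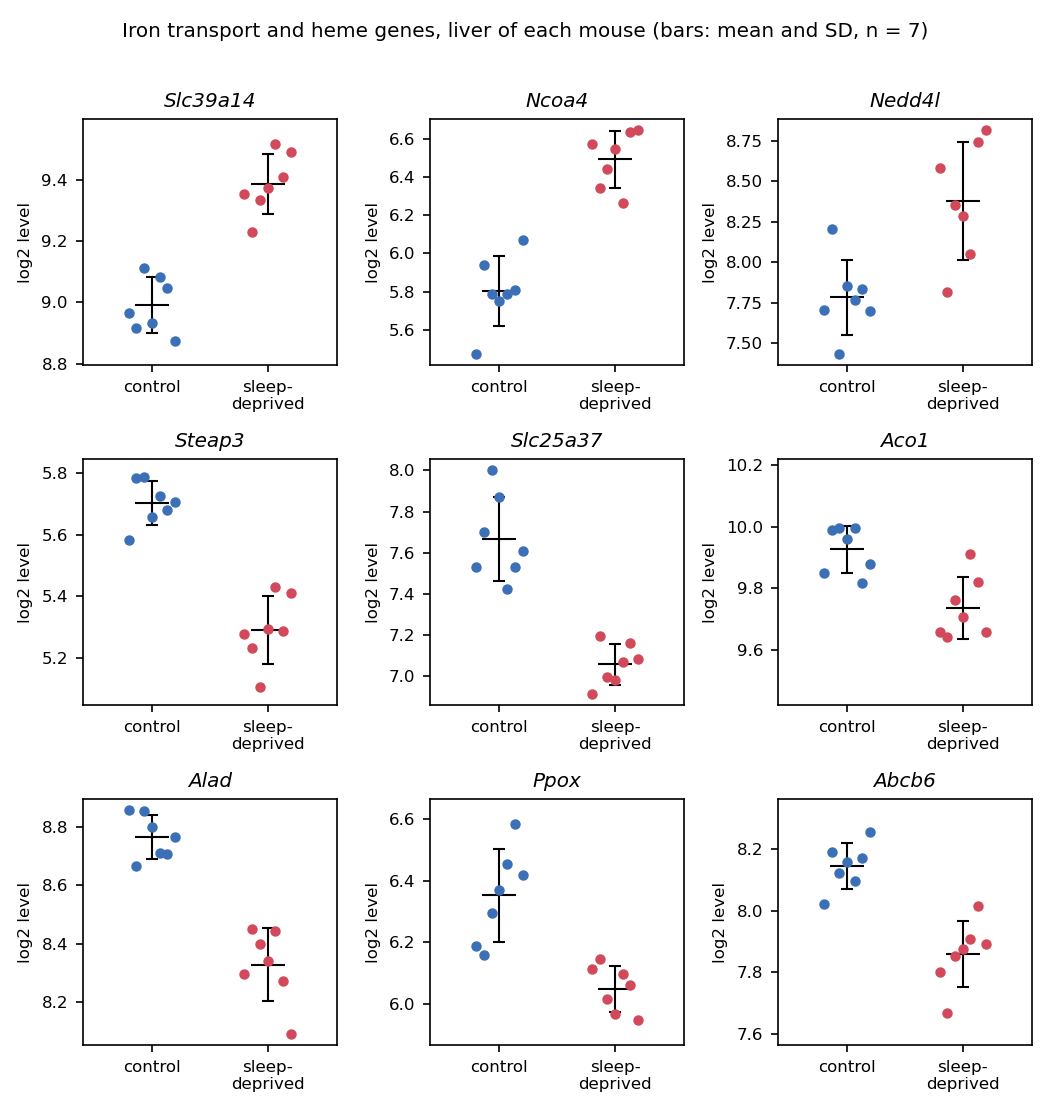
Log2 level (y axis, own range for each gene) in each mouse of 9 genes of iron transport and heme synthesis called in the text, with control mice in blue and sleep-deprived mice in red; bars give the mean and SD of 7 mice. The groups are apart in Slc39a14, Ncoa4, Steap3, Slc25a37, Alad, Ppox and Abcb6, and overlap in Nedd4l and Aco1. The called genes Pcbp1 and Cd163, not shown, overlap too. Groups were apart in 4 of 27 iron transport and 3 of 21 heme genes, against 3.13% of all genes.

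The inflammatory and stress arm of hepcidin control also moved in both directions, with 3 of 21 measured genes higher and 1 lower (19.0% called against 8.50% of all genes) and a median log2 difference of 0.019. Il6ra, the interleukin-6 receptor through which inflammation raises hepcidin, was at 9.35 ± 0.14 in controls and 9.68 ± 0.15 after sleep deprivation, a rise of 0.33 ± 0.070 (limma, adjusted p = 0.0042) with 6 of 7 sleep-deprived mice above all controls. Inhbb, the activin B subunit, which can act on hepatocytes through SMAD proteins, rose by 0.27 ± 0.082 (adjusted p = 0.0448), and Epas1, which encodes the hypoxia-inducible factor HIF-2 alpha, by 0.19 ± 0.050 (adjusted p = 0.0209). Socs3, the feedback inhibitor of STAT3 signalling, was at -0.31 ± 0.096 (adjusted p = 0.0473). Among leave-one-out fits, Inhbb kept its call in only 3, without control mice 8 or 12 or sleep-deprived mouse 6, and Socs3 in only 3, without control mice 7, 11 or 14. In the other 11 the adjusted p reached 0.095 and 0.101. The call of Epas1 was lost without sleep-deprived mouse 5 (adjusted p = 0.0533), without the intensity trend (0.0581) and with the sample number as a covariate (0.0857). That covariate also ended the call of Inhbb (adjusted p = 0.0921). Socs3 lost its call without the trend (0.0554), with array weights (0.056), with its 2 probe sets averaged (0.0614) and with quantile normalization again (0.0685). Stat3 itself was at -0.13 ± 0.071 (adjusted p = 0.359), and Creb3l3, a liver stress factor that binds the Hamp promoter, at 0.14 ± 0.045 (adjusted p = 0.0576). Creb3l3 passed as higher among brighter genes alone (0.0303), with quantile normalization again (0.0173), with the covariate (0.0473), and on leaving out sleep-deprived mouse 10 (0.0418) or control mouse 11 (0.0285). The list had 1 called gene without sleep-deprived mouse 5 and 2 without mouse 1 or mouse 13.

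Between mice of a group, some members varied together. Deviations from the group mean were compared over the 14 mice for all 36 pairs of members, with p from 100000 permutations within groups (two-sided) adjusted over the 36 pairs. Hamp was low in the mice in which Tfr2 was high (Pearson's r = -0.769, permutation p = 0.00343, adjusted p = 0.0412; Spearman's rho = -0.763, permutation p = 0.00442, adjusted p = 0.0796, which did not pass). The value of r was -0.769 among controls and -0.77 among sleep-deprived mice, and -0.754 without the 2 mice farthest in Hamp. Of all genes, 0.316% were as strongly related to Hamp in either direction.

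Tfrc and Slc40a1 rose and fell together (r = 0.759, permutation p = 0.0001, adjusted p = 0.0036; rho = 0.793, permutation p = 0.00064, adjusted p = 0.023), with 0.882 in controls, 0.924 in sleep-deprived mice and 0.747 without the 2 mice farthest in Tfrc. Of all genes 0.636% were as strongly related to Tfrc. Slc40a1 also went with the mean of the Kupffer cell and macrophage markers (r = 0.709, permutation p = 0.0002, adjusted p = 0.0108 over 54 relations of members with marker lists; rho = 0.824, adjusted p = 0.0197; r = 0.704 without the 2 mice farthest in the markers). With the sinusoidal endothelial markers it had r = 0.771 (permutation p = 0.00137, adjusted p = 0.037; rho = 0.833, adjusted p = 0.0197; r = 0.746 without the 2 farthest mice). For Tfrc these values were 0.745 with Kupffer cell and 0.705 with endothelial markers (permutation, adjusted p = 0.0881 for both). Slc40a1 and Tfrc were also the members closest to the first principal component of the deviations of all genes, which held 14.2% of their variance. Their absolute r with it was 0.695 and 0.600, while the other members lay between 0.0798 and 0.481. The part of these markers and of this component in the relation of Tfrc with Slc40a1 was not tested.

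Id1 and Smad7 were related at r = 0.837 (permutation p = 0.00185, adjusted p = 0.0333), but at rho = 0.64 (permutation p = 0.0187, adjusted p = 0.224, which did not pass), and r was 0.654 without the 2 mice farthest in Id1, of which mouse 13 was the farther. No other pair passed by Pearson's r. The genes whose deviations were most like those of Hamp were Ube2k (r = 0.897, rho = 0.859), H2-Q10 (r = 0.889, rho = 0.833) and Grb2 (r = 0.875, rho = 0.873). For Id1 they were Emc2 (r = 0.862), Zmat3 (r = 0.86) and Pnma5 (r = 0.857), and for Tfrc they were Bbs2 (r = 0.893), Dock10 (r = 0.88) and Ap5s1 (r = 0.871). These 9 genes were picked from all genes for their likeness over the same 14 arrays, so no p is given.

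**Figure D5:**
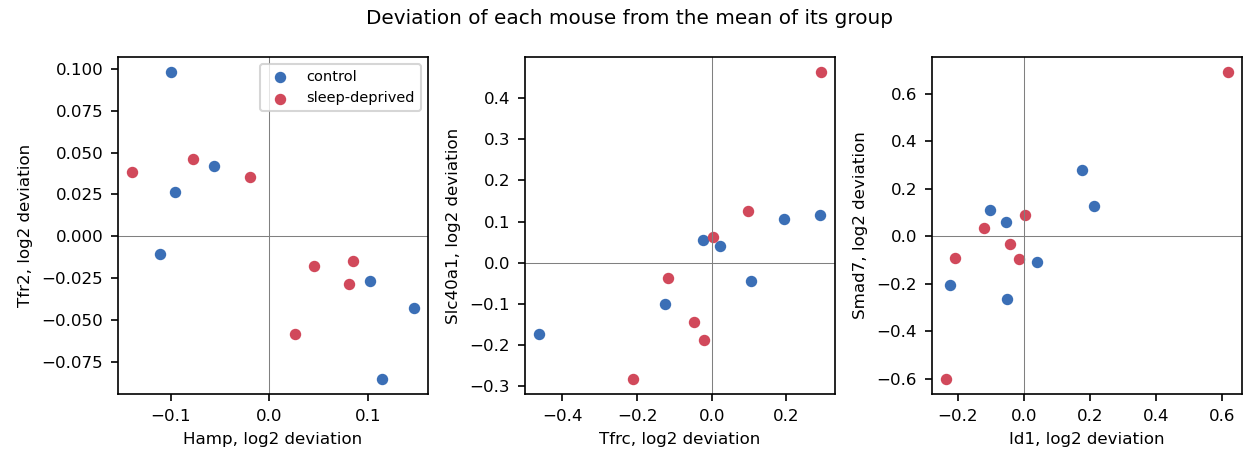
Deviation of each mouse from the mean of its group, on the log2 scale, for Hamp and Tfr2, Tfrc and Slc40a1, and Id1 and Smad7 (x and y axis of each panel), with control mice in blue and sleep-deprived mice in red. Hamp and Tfr2 run in opposite directions (r = -0.769), Tfrc and Slc40a1 run together (r = 0.759), and the relation of Id1 with Smad7 (r = 0.837) includes mouse 13 at the upper right.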

How the data were processed

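The liver of 14 mice, 7 per group by the sample titles, was measured on whole-transcript arrays from 100 ng of total RNA, per the labels' protocols. Each array came with log2 values of its probe sets, which the authors obtained by RMA, per the submitters' processing notes. No version of RMA is named. The annotation, filters and build are not stated in those notes. Array medians lay between 3.443 and 3.491. RMA compresses dim signals, so differences of dim genes are understated, and no detection calls are held. The number of arrays limits the precision.

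Probe sets were named by the platform annotation with exactly 1 symbol (23521 of 41345), and the brightest over all arrays was taken per gene. The probe set of Trf lists several genes. Groups were compared by limma 3.58.1 (R 4.3.3), with lmFit and a two-sided eBayes that lets the prior follow intensity, adjusted by Benjamini-Hochberg over all genes at a threshold of 0.05. Moderated SEs can be smaller than the group SDs give. The same steps on simulated data of 22180 genes recovered 87 of 100 genes changed by 0.5 and 99 of 100 changed by 1 on the log2 scale, with 8 false calls. The simulated noise was independent between genes. No change under 0.5 was simulated, so the recovery of differences as small as those of the members is not known.

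The members, lists and alternatives were chosen with earlier results of these data known. The rule for named genes took all members, genes of 5 pathway lists past the threshold (or, where under 2 passed, the 2 with the smallest adjusted p), 15 genes set whatever their result, of which Gdf15 and Ftl1 are not analysed here, and the 3 genes most like Hamp, Id1 and Tfrc. Eng, Atoh8, Cpox, Smad6, Bambi, Id4, Lyve1, Oit3, Pecam1, Ehd3 and Kdr were named after their values were seen. No alternative fits are given for them. Markers of hepatocytes were measured for 10 of 10 genes, 3 of them higher, with a summed linear level of 55571 to 58895 in controls and 58497 to 60058 after sleep deprivation. Stellate cell markers had 1 of 10 higher, neutrophil markers 0 of 8 called and red blood cell markers 2 of 10 measured and 0 called (limma; 0 of these 10 at an unadjusted p under 0.05). Alternatives were other variance estimates, array weights, brighter genes only, other handling of probe sets, other normalizations, the sample number as a covariate and leaving out each mouse.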

Additional observations from a re-analysis of the deposited data

Results flagged for a closer look

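In Id1, the log2 level of 5.60 in sleep-deprived mouse 13 was far above the next mouse of its group at 4.99, a gap that made up 0.72 of the range of the group. Control mouse 8 had a log2 level of 12.30 in Fth1, with the next control at 12.24, a gap of 0.675 of the range, in a gene whose controls spanned less than 0.1. These were the 2 flags in 74 groups of 7 mice, where chance flags about 1 group in 20.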

How the results depend on the processing

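The number of genes called, 1886, ran from 1693 to 2259 under the 9 other settings and from 1541 to 1893 without 1 mouse. The highest count came from brighter genes alone, those above the median gene in mean level. It is thus a larger share of fewer genes. Of 207 alternative values of the members, 195 kept direction and side of the threshold. Tfr2 did not pass without the intensity trend (-0.16, adjusted p = 0.0514), leaving 0 members called (limma; 1 at an unadjusted p under 0.05 in the fit with the trend), and ran from -0.18 to -0.15 without 1 mouse. The difference of Hamp turned to 0.0036 with array weights, 0.0040 with arrays centred on the median and 0.00075 with quantile normalization again, and ran from -0.026 to 0.017 without 1 mouse. Smad7 ran from -0.29 to -0.077 and Tfrc from -0.27 to -0.14 without 1 mouse. With the sample number as a covariate, Slc40a1 was 0.16, Id1 0.11 and Bmp6 0.019, and none passed. Without 1 mouse, Id1 ran from -0.080 to 0.063, Slc40a1 from -0.046 to 0.078, Alas1 from -0.090 to 0.0018, Cp from -0.019 to 0.043, Hamp2 from -0.10 to 0.0074, Hjv from -0.037 to 0.013 and Fth1 from -0.019 to 0.0023, and Fth1 was 0.0026 with centred arrays. BMP-SMAD genes called were 1 without the trend, 1 with robust estimation and 1 with the sample number as a covariate, 3 among brighter genes alone, 3 with quantile normalization again, and 1 to 2 without 1 mouse. Inflammatory and stress genes called were 2 without the trend, 8 among brighter genes alone and 7 with quantile normalization again, and 1 to 4 without 1 mouse. Iron-sulfur genes called were 1 with probe sets averaged and 2 to 4 without 1 mouse. Of 644 alternative values of the other named genes, 60 lost and 5 gained a call. The causes were not tested. No paired analysis was possible because the groups share no sample number. Differences of dim genes near background are limited by the compression of their signal.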
